A study of Mus musculus with 12 samples.

Results

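Chromatin that was open mainly in thymic iNKT2 cells was followed from C57BL/6 mice into mice that lack Hivep3. iNKT cells are T cells with an invariant TCR that sees lipids on CD1d, and in the thymus they become iNKT1, iNKT2 and iNKT17 cells. iNKT2 cells express high levels of the transcription factors PLZF and GATA3 and produce IL-4 already in the thymus, whereas iNKT1 cells depend on T-bet and iNKT17 cells on Rorγt. Hivep3 encodes a large zinc finger protein that can bind DNA. ATAC-seq measures open chromatin by letting a transposase insert adapters into it, and regions open in 1 subset are often enhancers of genes that the subset uses.

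A region was taken as an iNKT2 region by a rule on 6 C57BL/6 libraries. The lower of both C57BL/6 iNKT2 libraries had to be at least 1.585 (3-fold) above the highest of the 4 C57BL/6 iNKT1 and iNKT17 libraries on the log2 scale. The mean of the iNKT2 libraries had to be at least 2.32, which is 5 normalized insertions per kb. Of 63309 regions of 500 bp, 1443 (2.28%) met the rule, and 15 of the 1458 regions with the margin failed the level. The rule sets the high iNKT2 level and the low iNKT1 and iNKT17 levels in C57BL/6 cells, so those are a description. The 6 Hivep3-/- libraries took no part in it, and comparisons among them are the tests given here.

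The 12 libraries are 2 each of iNKT1, iNKT2 and iNKT17 cells from wildtype C57BL/6 mice and from Hivep3-/- mice on the C57BL/6 background. The mice were untreated and 8-9 weeks old. Thymi were pooled and the subsets sorted on CD122, ICOS, Izumo1r and CD138, combined for the transposase reaction, and separated again. The reaction had quenched CD122 and Izumo1r, so the second sort rested on ICOS and CD138, and iNKT2 cells were those with ICOS and without CD138. The paper reports less Icos transcript and protein in Hivep3-/- iNKT cells. Whether this changed which cells were sorted as iNKT2 was not tested. The labels number the libraries as mouse 1 and 2 although thymi were pooled, so p-values measure the spread between these libraries, which may be technical. Fewer cells with a region open and less opening per cell cannot be told apart in such libraries.

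The subset labels were checked at the promoters of marker genes (linear values summed over each list). The 8 iNKT2 genes summed to 725 and 765 in the C57BL/6 iNKT2 libraries, against 502–563 in the other C57BL/6 libraries. In Hivep3-/- cells they summed to 686 and 698 in iNKT2 and to 471–516 in the other subsets. Most of the gap lay at Ccr7 (170 and 168 in C57BL/6 iNKT2, 73.8–109 in the other C57BL/6 libraries) and Izumo1r (151 and 155, against 22.3–95.7), while Gata3 (159 and 143, against 134–150), Zbtb16 (179 and 170, against 147–175) and Icos hardly separated the subsets. The Plac8 promoter was at 3.16 and 4.45 in Hivep3-/- iNKT2, below 10.1 and 9.58 in Hivep3-/- iNKT1. In iNKT2 libraries the 8 iNKT1 markers were at 556 and 559 for C57BL/6 mice and at 506 and 544 for the knockout, against 1111–1132 in iNKT1 of both genotypes. Il2rb made up most of these iNKT2 sums, at 398–454. The iNKT1 promoters of Ifng and Nkg7 were higher in C57BL/6 iNKT2 (30.6 and 25.8, 28.3 and 25.4) than in Hivep3-/- iNKT2 (6.07 and 7.21, 8.95 and 6.07). The iNKT17 markers were at 34.6–42.4 in iNKT2 of both genotypes, against 431 and 462 in C57BL/6 iNKT17. Promoters of double positive thymocyte genes were in the table for 0 of 6 genes. Of the B cell list, Pax5 and Ebf1 had one (2 of 5 genes), with sums of 30.7–33.3 in iNKT2 of both genotypes, 14.3–19.7 in iNKT1 and 26.9–36.2 in iNKT17. Of the myeloid list, Cd68 and Spi1 had one (2 of 5 genes), with sums of 76.7–95.6 in iNKT2, 78.9–87.3 in iNKT1 and 74.3–81.7 in iNKT17. The regulatory T cell list had 4 of 5 genes but no Foxp3 promoter, with 390–425 in iNKT2, 514–533 in iNKT1 and 360–405 in iNKT17. Their part in the results below was not tested. At Hivep3, 21 regions summed to 230–434 in C57BL/6 and 240–423 in Hivep3-/- libraries, which checks nothing, since the deleted part of the gene is not given in the sources used here. The table gives no read depth. As a stand-in, the count of different values in the lower part of a library, up to its median, ranged from 73 and 85 in Hivep3-/- iNKT17 to 491 in 1 Hivep3-/- iNKT1 library, with 91 and 118 in Hivep3-/- iNKT2 and 159 and 219 in C57BL/6 iNKT2.

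The central 300 bases of 7 iNKT2 regions are shown, since the results below turn on them. They are read on the plus strand of GRCm38.p6 (mm10) from the reference genome. Capitals mark the letters of the TCF, NFAT, GATA and bZIP motifs on either strand, which are spelled out with their shares below. 2 regions come from the type 2 cytokine locus of chromosome 11. These are an intronic region of Kif3a (chr11:53585591-53585890) and an intronic region of Rad50 (chr11:53650988-53651287).
Kif3a intronic region: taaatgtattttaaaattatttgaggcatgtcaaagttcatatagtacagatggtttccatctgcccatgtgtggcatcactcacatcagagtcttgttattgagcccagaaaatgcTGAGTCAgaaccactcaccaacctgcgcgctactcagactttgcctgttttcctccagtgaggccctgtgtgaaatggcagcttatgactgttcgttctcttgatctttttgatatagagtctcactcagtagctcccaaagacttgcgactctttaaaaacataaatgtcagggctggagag
Rad50 intronic region: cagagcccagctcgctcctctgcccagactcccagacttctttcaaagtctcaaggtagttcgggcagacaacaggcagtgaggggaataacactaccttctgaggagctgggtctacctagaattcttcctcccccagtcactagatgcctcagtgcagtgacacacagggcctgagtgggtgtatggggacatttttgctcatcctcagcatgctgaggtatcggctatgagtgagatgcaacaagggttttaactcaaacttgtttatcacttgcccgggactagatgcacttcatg
The region 8.16 kb upstream of Irf4 (chr13:30740921-30741220) and the intronic region of D17Wsu92e, nearest coding start Spdef (chr17:27774230-27774529), hold the TCF letters that iNKT2 regions had more often than the other lists.
Irf4 upstream region: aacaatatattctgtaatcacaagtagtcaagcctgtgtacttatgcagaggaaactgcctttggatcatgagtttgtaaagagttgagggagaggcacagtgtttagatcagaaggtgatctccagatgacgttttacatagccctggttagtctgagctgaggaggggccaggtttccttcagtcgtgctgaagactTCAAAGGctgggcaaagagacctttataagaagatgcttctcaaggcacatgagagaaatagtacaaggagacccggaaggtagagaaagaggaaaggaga
D17Wsu92e intronic region: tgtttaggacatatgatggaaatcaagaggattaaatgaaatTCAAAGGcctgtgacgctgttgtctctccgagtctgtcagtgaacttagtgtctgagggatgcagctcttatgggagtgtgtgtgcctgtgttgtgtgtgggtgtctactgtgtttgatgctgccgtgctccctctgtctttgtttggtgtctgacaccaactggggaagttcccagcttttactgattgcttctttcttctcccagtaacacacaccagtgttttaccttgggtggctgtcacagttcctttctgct
Like the Irf4 region, the last 3 did not meet the rule in the knockout. They are an intronic region of Nos1 (chr5:117906899-117907198), the intergenic region with the largest margin of all, 63.1 kb from the start of Slain1 (chr14:103727486-103727785), and an intronic region of Tox2 (chr2:163299016-163299315).
Nos1 intronic region: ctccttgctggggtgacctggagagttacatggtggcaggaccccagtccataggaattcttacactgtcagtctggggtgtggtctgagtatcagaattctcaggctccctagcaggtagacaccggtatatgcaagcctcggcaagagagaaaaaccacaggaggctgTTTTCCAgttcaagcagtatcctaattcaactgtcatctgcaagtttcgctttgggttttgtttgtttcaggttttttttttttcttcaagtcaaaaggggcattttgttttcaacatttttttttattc
Slain1 intergenic region: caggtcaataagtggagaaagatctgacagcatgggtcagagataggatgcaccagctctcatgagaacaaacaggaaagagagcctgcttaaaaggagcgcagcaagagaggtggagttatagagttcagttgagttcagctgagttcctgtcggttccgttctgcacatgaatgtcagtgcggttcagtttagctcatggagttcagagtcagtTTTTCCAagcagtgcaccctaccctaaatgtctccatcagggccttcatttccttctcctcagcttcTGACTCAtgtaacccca
Tox2 intronic region: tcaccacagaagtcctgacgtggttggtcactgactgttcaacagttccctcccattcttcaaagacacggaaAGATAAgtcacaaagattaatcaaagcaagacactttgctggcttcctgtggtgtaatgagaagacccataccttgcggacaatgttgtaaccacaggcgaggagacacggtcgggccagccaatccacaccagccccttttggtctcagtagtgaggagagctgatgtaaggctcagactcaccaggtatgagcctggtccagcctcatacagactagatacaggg

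The iNKT2 regions lay mostly away from promoters. By GENCODE vM21 genes, 738 (51.1%) were intronic, 470 (32.6%) intergenic, 147 (10.2%) within 1 kb of a transcript start and 88 (6.1%) in other exons. Of all regions in the table, 35.5% were at promoters. The median distance to the nearest coding start was 16.3 kb for iNKT2 regions and 5.44 kb for all regions, and 164 (11.4%) were over 100 kb away against 5.33% of all regions. Regions chosen by the same rule for iNKT1 (2233 regions) and iNKT17 (3332 regions) were placed alike, with 10.7% and 11.1% at promoters and medians of 14.4 and 15.9 kb. Chromosome 9 held the most iNKT2 regions (123, or 3.26% of its regions), and chromosomes X (9, 0.787%) and 19 (22, 1.08%) the lowest shares.

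The iNKT2 regions fell near 1069 genes by nearest coding start, and 843 of these had a single one. Another iNKT2 region lay within 25 kb for 434 (30.1%), and 29 genes had 4 or more. The nearest gene is a position and not a target.

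The TCF letters TCAAAGG stood in 18.6% of iNKT2 regions, in 9.4% of iNKT1 regions, in 10.8% of iNKT17 regions and in 9.5% of all regions. TCF-1 and LEF-1, the factors that bind this motif, act early in T cell development. The NFAT letters TTTTCCA were in 15.1% of iNKT2 regions against 10.3%, 11.0% and 10.1%, and the GATA letters AGATAA in 31.1% against 25.8%, 26.7% and 20.6%. Outside promoters the shares were 19.1% for TCF, 15.7% for NFAT and 32.5% for GATA, beside 11.1%, 11.1% and 24.9% of all regions outside promoters. The T-box letters AGGTGTG were in 12.9% of iNKT2 regions and 23.0% of iNKT1 regions. The ROR letters TAGGTCA or TGGGTCA were in 8.8% of iNKT2 regions and 43.6% of iNKT17 regions, and the ETS letters AGGAAGT in 18.4% of iNKT2 regions and 29.9% of iNKT1 regions. The Runt letters AACCACA (19.1% of iNKT2 regions, 17.4% of all), the E-box CAGCTG (28.1% and 27.1%), the bZIP letters TGACTCA (15.5% and 11.5%) and the Egr letters GTGGGCG (4.9% and 8.4%) were searched in the same way. In iNKT1 and iNKT17 regions the shares were 28.3% and 23.9% for Runt and 27.8% and 26.3% for the E-box. They were 14.3% and 15.8% for bZIP and 2.6% and 3.1% for Egr. Outside promoters the Egr letters were in 4.48% of iNKT2 regions and 4.50% of all regions. All were searched on both strands over the whole 500 bp, and no motif holds another. Such matches are a description of letters and say nothing about binding.

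**Figure D1:**
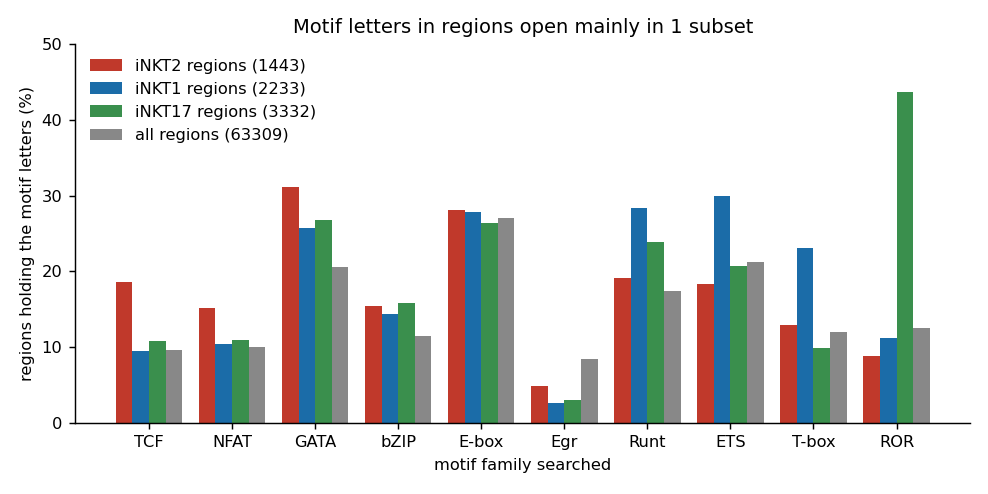
Share of regions (%, vertical axis) that hold the letters of each of 10 motifs (horizontal axis), in regions open mainly in C57BL/6 iNKT2 (1443), iNKT1 (2233) or iNKT17 cells (3332) and in all 63309 regions. TCF stands out for the iNKT2 regions at 18.6%, as T-box does for the iNKT1 regions at 23.0% and ROR for the iNKT17 regions at 43.6%.

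In Hivep3-/- mice the iNKT2 regions were again more open in iNKT2 cells than in the other subsets. Their median level was 3.38 and 3.37 (log2) in the Hivep3-/- iNKT2 libraries, beside 3.81 and 3.78 in the C57BL/6 iNKT2 libraries, which the rule picked to be high. It was 1.23 in both Hivep3-/- iNKT1 libraries and 0.57 and 0.63 in the Hivep3-/- iNKT17 libraries. The corresponding C57BL/6 medians were 0.92 and 1.13 in iNKT1 and 0.91 in both iNKT17 libraries. All regions of the table had medians near 3.90 in each library, so the median iNKT2 region was below the typical level even in iNKT2 cells. The upper quartiles of the iNKT2 regions were above it, at 4.46 and 4.50 in C57BL/6 iNKT2.

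**Figure D2:**
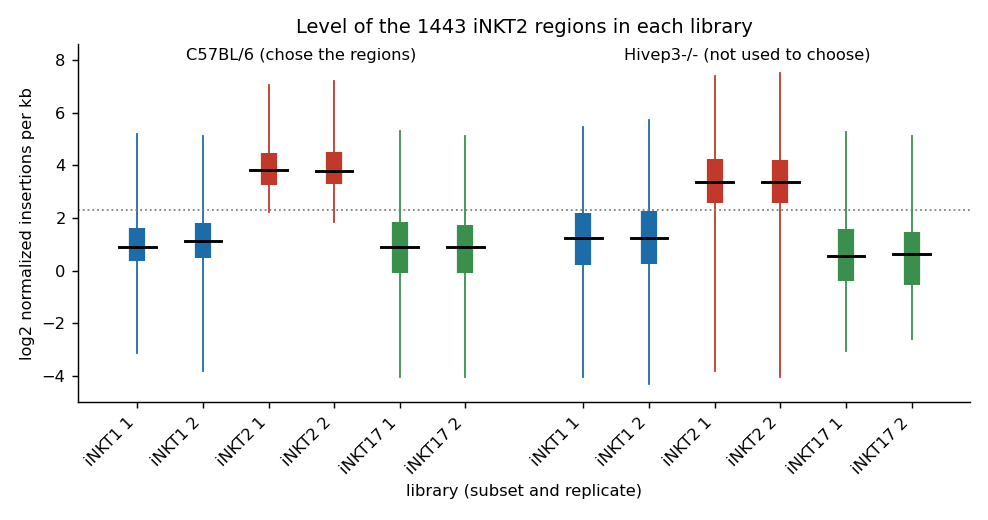
Level of the 1443 iNKT2 regions (log2 normalized insertions per kb, vertical axis) in each of the 12 libraries (horizontal axis, subset and replicate), with the median as a black line, the middle 50% of regions as a thick bar and the full range as a thin line. The dotted line is the level of 2.32 in the rule. The Hivep3-/- iNKT2 medians of 3.38 and 3.37 are above the 4 other Hivep3-/- medians of 0.57 to 1.23, and their ranges reach down to -3.79 and -4.05.

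Against Hivep3-/- iNKT1, 879 of the 1443 iNKT2 regions (60.9%) were called more accessible in Hivep3-/- iNKT2, where 8.54% of all tested regions were, and 5 were called less accessible (8.77% of all tested regions). Against Hivep3-/- iNKT17, 1085 (75.2%) were called more accessible (7.33% of all tested regions) and 0 less accessible (8.25%). Both calls were made for 839 (58.1%, beside 3.86% of all tested regions). A call needs 3-fold or more and an adjusted p below 0.1 in limma, fitted over all regions. 1179 and 1164 iNKT2 regions passed the filter on accessibility in these comparisons, and the others count as not called. Over all 1443, the median log2 difference was 2.12 against iNKT1 and 2.79 against iNKT17, where all regions had 0.02 and 0.04. With 5 added to the linear values before the log2, 281, 384 and 223 were called. With the filter set on the mean of all 12 libraries, 574 were called against iNKT1.

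Without any model, both Hivep3-/- iNKT2 libraries were above the 4 other Hivep3-/- libraries in 1296 iNKT2 regions (89.8%), as in 24.0% of all regions. The exceptions lay mostly on the iNKT1 side. The Hivep3-/- iNKT1 mean was above the Hivep3-/- iNKT2 mean in 84 regions, and the iNKT17 mean in 6. In 282 regions the Hivep3-/- iNKT2 mean was under the level of 2.32, and in 17 both libraries were at or under 0. Between the other subsets, 363 iNKT2 regions passed the filter. Of all 1443, 131 (9.08%) were called more accessible in Hivep3-/- iNKT1 than in iNKT17 (9.48% of all tested regions). Another 9 (0.624%) were called less accessible (9.83%). The filter keeps iNKT2 regions that are high in 1 or both of these subsets, so nothing is read from a share of the 363. The median difference was 0.62 over all 1443. In the Hivep3-/- iNKT17 libraries 133 and 176 of the iNKT2 regions were at the lowest value of the library, so their differences rest on a coarse scale.

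**Figure D3:**
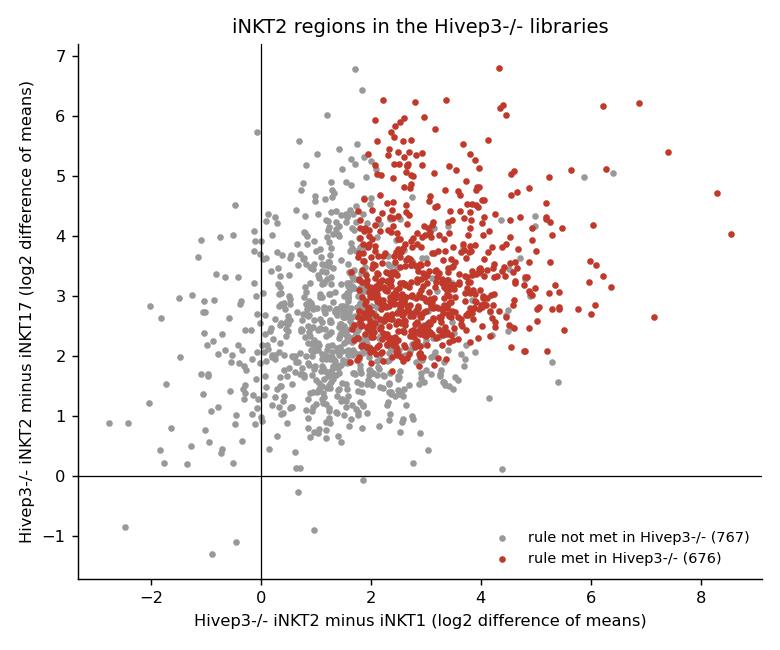
Each point is 1 of the 1443 iNKT2 regions, placed by its log2 difference of means between Hivep3-/- iNKT2 and iNKT1 (horizontal axis) and between Hivep3-/- iNKT2 and iNKT17 (vertical axis). Regions that met the rule in Hivep3-/- cells are red (676) and the others grey (767), and the points left of the vertical line are the 84 with iNKT1 above iNKT2.

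The same rule applied to the Hivep3-/- libraries gave 1359 iNKT2 regions (2.15% of all regions), and 676 were on both lists, 46.8% of the C57BL/6 list and 49.7% of the Hivep3-/- list. For iNKT1 the lists had 2233 and 2671 regions (4.22% in Hivep3-/-) and shared 1739, 77.9% and 65.1% of them. For iNKT17 they had 3332 and 2944 (4.65%) and shared 2647, 79.4% and 89.9%. The iNKT2 margins were smaller, with a median of 2.10 in the C57BL/6 list against 2.34 for iNKT1 and 3.11 for iNKT17. The lists were also compared at like margins. Among regions with at least 8-fold in C57BL/6, 61 of 114 iNKT2 regions (53.5%) met the rule in Hivep3-/-, where 94.2% of 620 iNKT1 and 93.2% of 1757 iNKT17 regions did. Between 4- and 8-fold it was 50.5% of 711 iNKT2 regions against 83.4% and 73.8%, and between 3- and 4-fold 41.4% of 618 against 56.4% and 46.2%. In the other direction, from Hivep3-/- to C57BL/6, 77.8% of 117 iNKT2 regions with at least 8-fold met the rule, 58.4% of 637 with 4- to 8-fold and 35.2% of 605 with 3- to 4-fold. The iNKT1 shares were 88.1%, 64.3% and 41.1% at these margins, nearer to those of iNKT2, and the iNKT17 shares 98.3%, 89.0% and 67.9%. The 3 lists use the same libraries and no test of the difference between them was made.

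**Figure D4:**
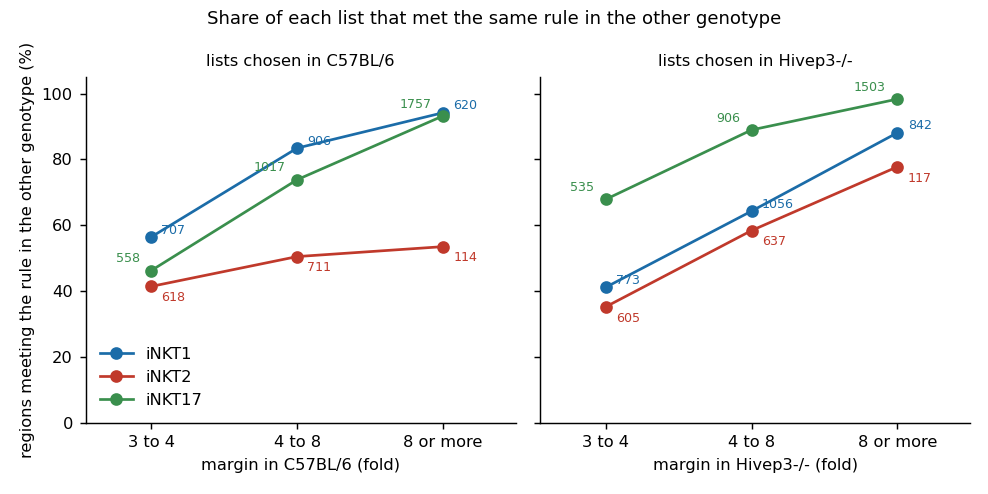
Share of regions (%, vertical axis) on the iNKT1, iNKT2 and iNKT17 lists that met the same rule in the other genotype, by margin in the genotype that chose them (fold, horizontal axis), with the number of regions beside each point. For lists chosen in C57BL/6 (left) the iNKT2 share is 53.5% at 8-fold or more while both other lists are above 93%, and for lists chosen in Hivep3-/- (right) the iNKT2 share at that margin is 77.8%, beside 88.1% for iNKT1 and 98.3% for iNKT17.

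The iNKT2 share from C57BL/6 to Hivep3-/- moved with the choices behind the rule, and was under both others in each setting run. It was 58.9% with a 2-fold and 37.6% with a 4-fold margin in both genotypes, and 54.4% with group means in place of single libraries. In those settings, chosen after the data were seen, the iNKT1 list gave 76.2%, 77.3% and 78.8% and the iNKT17 list 79.8%, 77.4% and 80.9%. Without 1 of the 6 Hivep3-/- libraries at a time it was 49.3–52.6%.

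Regions that met the rule in both genotypes and those that met it in C57BL/6 alone were in like places. The share that met it in Hivep3-/- was 46.9% of the 147 promoter regions, 44.3% of the 88 exonic, 48.0% of the 738 intronic and 45.5% of the 470 intergenic regions. The letters differed a little. bZIP letters were in 12.7% of the 676 regions of both genotypes and 17.9% of the 767 of C57BL/6 alone, TCF letters in 16.7% and 20.2%, and NFAT letters in 13.2% and 16.8%. Of the 767, 198 had an iNKT2 mean at least 3-fold lower in Hivep3-/-, 62 had the higher of the other subsets at least 3-fold up, and 13 had both. The others, the larger part, had neither change. Of the 683 regions that met the rule in Hivep3-/- alone, the corresponding numbers were 40, 34 and 3.

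Between genotypes the rule itself moves the values, because it picked high C57BL/6 iNKT2 and low C57BL/6 iNKT1 and iNKT17 values, so nothing is read from these counts. Where C57BL/6 values stand beside Hivep3-/- values of the same subset below, they are a description for the same reason. In iNKT2 cells the iNKT2 regions had a median log2 change of -0.42 from C57BL/6 to Hivep3-/-, and 176 were called lower in Hivep3-/- (1.20% of all tested regions) and 2 higher (0.474%). Without C57BL/6 iNKT2 replicate 1 the lower count was 83, without replicate 2 it was 86, and without Hivep3-/- iNKT2 replicate 1 it was 110. In iNKT1 cells the median was 0.16, and of 357 iNKT2 regions tested 65 were called higher (0.890%) and 3 lower (0.264%) in Hivep3-/-. The higher count was 37 without C57BL/6 iNKT1 replicate 1 and 42 without Hivep3-/- iNKT1 replicate 2, and the lower count 5 without the first of these. In iNKT17 cells the median was -0.29, and of 235 iNKT2 regions tested 1 was called higher (0.133%) and 6 lower (0.138%). The lower count rose to 14 and 13 without either Hivep3-/- iNKT17 library.

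Regions at the type 2 cytokine genes were among those that met the rule in both genotypes. IL-4 and IL-13 are the cytokines of type 2 responses, and their genes share a locus with Rad50 and Kif3a on chromosome 11. Of 12 type 2 cytokine and receptor genes, 5 had an iNKT2 region within the gene or 10 kb of it (Il4, Il13, Rad50, Kif3a and Il6ra). A region can lie within 10 kb of more than 1 of these genes. These were 7 regions of 85, where 2.28% of all regions are iNKT2 regions. At Il6ra alone there were 4 of the 7, of which 3 met the rule in Hivep3-/-. Of the 7, 6 met the rule in Hivep3-/- (46.8% of the 1443 did, and 2.15% of all regions) and 7 were called in both Hivep3-/- comparisons (58.1% of the 1443, and 3.86% of all tested regions). Il5, Il4ra, Il17rb, Il25, Il1rl1, Il9 and Areg had none.

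The Rad50 region (chr11:53650888-53651387) lies in the 3′ part of that gene, where the locus control region of the type 2 cytokine genes is known to be, and 16.4 kb from the start of Il13. It was at 2.90 and 3.18 in C57BL/6 iNKT2, and in Hivep3-/- iNKT2 at 3.94 and 4.20, against -0.78 and -2.37 in Hivep3-/- iNKT1 and -1.52 and -0.55 in Hivep3-/- iNKT17. The Hivep3-/- log2 difference from iNKT1 was 5.64 ± 0.55 (SE, n = 2 per group), adjusted p = 2.08e-06 in limma. Later values after ± are SEs of the same kind.

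The Kif3a region (chr11:53585491-53585990), in an intron of a kinesin gene beside Il4, met the rule in both genotypes. It stood at 4.23 and 4.29 in C57BL/6 iNKT2, and in Hivep3-/- iNKT2 at 3.38 and 2.98, with Hivep3-/- iNKT1 at -0.996 and -0.97 and iNKT17 at -0.10 and 0.97. In Hivep3-/- it differed from iNKT1 by 4.17 ± 0.41 (limma adjusted p = 2.38e-06). The 4 intronic regions of Il6ra, the alpha chain of the IL-6 receptor, had medians of 3.90 and 3.92 in C57BL/6 iNKT2. In Hivep3-/- the medians were 4.24 and 4.13 in iNKT2, above 1.56 and 1.34 in iNKT1.

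Of 12 iNKT2 factors and surface markers, Ccr7, Ccr9, Cd4 and Cd28 had 1 iNKT2 region each, and Gata3, Zbtb16, Icos, Izumo1r, Plac8, Slamf6, Zbtb7b and Maf had none. These were 4 regions of 199 (2.01%), where 2.28% of all regions are iNKT2 regions, so the list held no more than that share. Ccr7 and Ccr9 are chemokine receptors of thymocytes. The intronic Ccr7 region (chr11:99152727-99153226) met the rule in both genotypes, with 4.06 and 3.49 in C57BL/6 iNKT2, and in Hivep3-/- iNKT2 3.43 and 3.68. The intronic Ccr9 region (chr9:123733762-123734261) was at 3.72 in both C57BL/6 iNKT2 libraries, at 2.75 and 3.33 in Hivep3-/- iNKT2 and at 1.33 and 0.84 in Hivep3-/- iNKT1. It was called in both Hivep3-/- comparisons but missed the margin of the rule.

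Cd4 and Cd28 encode the coreceptor and the costimulatory receptor of T cells. The region 7.71 kb upstream of Cd4 (chr6:124895683-124896182) was at 3.86 and 3.85 in C57BL/6 iNKT2, and in Hivep3-/- iNKT2 at 2.92 and 2.59, while Hivep3-/- iNKT1 was at 2.39 and 2.91, so these subsets overlapped in the knockout. Its difference of 0.10 ± 0.54 from Hivep3-/- iNKT1 missed the threshold (limma adjusted p = 0.891). The region 3.37 kb upstream of Cd28 was at 3.50 and 3.39 in Hivep3-/- iNKT2 against 1.14 and 0.74 in iNKT1, a called difference of 2.51, and against 1.82 and 2.34 in iNKT17, a difference of 1.37 that was under 3-fold.

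In the list of TCF, LEF and TOX factors 3 of 130 regions (2.31%) were iNKT2 regions, where 2.28% of all regions are. Of these 3, 0 met the rule in Hivep3-/- (46.8% of the 1443 did), and so few regions say nothing about the list. The TCF, LEF and TOX proteins bind DNA through an HMG box and act in early T cells. Both regions of Lef1 were in exons. The first (chr3:131115996-131116495) was at 4.35 and 4.62 in C57BL/6 iNKT2, at 3.57 and 3.66 in Hivep3-/- iNKT2 and at 2.32 and 2.35 in Hivep3-/- iNKT1, a difference of 1.28 ± 0.28 that was under 3-fold. Both were called against Hivep3-/- iNKT17, the first by 4.91. Tcf7, Tox, Bcl11b, Satb1 and Themis had no iNKT2 region.

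The intronic Tox2 region (chr2:163298916-163299415) was more open in iNKT1 than in iNKT2 cells in the knockout. In C57BL/6 it was at 4.44 and 4.79 in iNKT2 and at 1.82 and 2.30 in iNKT1. In Hivep3-/- it was at 2.34 and 2.70 in iNKT2 and at 4.28 and 4.41 in iNKT1. The Hivep3-/- difference was -1.82 ± 0.31 (limma adjusted p = 0.000231), opposite to that in C57BL/6. It remained more open in Hivep3-/- iNKT2 than in iNKT17, which was at -0.41 and 0.19.

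The Tox2 region is 1 of the 5 iNKT2 regions called less accessible in Hivep3-/- iNKT2 than in iNKT1. The others were named after their values were seen. They were intronic regions of Gabbr2, a GABA receptor subunit, of Ptprj, a receptor tyrosine phosphatase, and of Enox1, and an intergenic region nearest to Nfil3, which encodes a bZIP factor. The Gabbr2 region (chr4:46794647-46795146) was at 3.83 and 4.07 in C57BL/6 iNKT2, at 0.51 and 0.84 in Hivep3-/- iNKT2, and at 3.32 and 3.54 in Hivep3-/- iNKT1. Its difference was -2.75 ± 0.61 (limma adjusted p = 0.00191). The Ptprj region (chr2:90463722-90464221) went from 3.61 and 2.94 to 0.99 and 0.55 in iNKT2, and was at 2.59 and 2.99 in Hivep3-/- iNKT1. The differences of the Ptprj, Nfil3 and Enox1 regions were -2.02, -1.83 and -1.64. In all 5 the Hivep3-/- iNKT1 libraries were both above both Hivep3-/- iNKT2 libraries.

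Of 16 genes of the earliest iNKT stage, Cd81 alone had iNKT2 regions, both within 1 kb of a start. These were 2 regions of 149 at the list (1.34%, beside 2.28% of all regions). CD81 is a tetraspanin of the cell surface. Its first region (chr7:143052503-143053002) was at 5.05 and 4.94 in C57BL/6 iNKT2, and in Hivep3-/- iNKT2 at 4.64 and 4.69, and differed from Hivep3-/- iNKT1 by 1.90 ± 0.22 (limma adjusted p = 9.26e-06). Hivep3 itself is on that list and had no iNKT2 region. Of 10 TCR-induced factors Irf4 alone had 1, among 123 regions at the list (0.813%), and it is the upstream region shown above. It was at 2.90 and 3.13 in C57BL/6 iNKT2, and in Hivep3-/- iNKT2 at 2.30 and 2.35, against -0.24 and -1.94 in Hivep3-/- iNKT1, and was called in both comparisons. It missed the margin of the rule in Hivep3-/-.

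Of 10 follicular helper genes, Sostdc1, P2rx7, Btla and Cd200 had 5 iNKT2 regions of 57. Of these 5, 1 met the rule in Hivep3-/- (46.8% of the 1443 did, and 2.15% of all regions). In both comparisons 4 were called (58.1% of the 1443, and 3.86% of all tested regions). So few regions say nothing about the list. The Sostdc1 region (chr12:36317108-36317607), in an exon of a secreted BMP antagonist, was at 5.16 and 5.37 in C57BL/6 iNKT2, and in Hivep3-/- iNKT2 at 4.85 and 5.07. The region downstream of Btla, an inhibitory receptor, was at 4.93 and 5.24 in C57BL/6 iNKT2, and in Hivep3-/- iNKT2 at 3.88 and 4.13. Hivep3-/- iNKT1 was at 3.05 and 3.00 there, a difference of 0.98 ± 0.69 that missed the threshold (limma adjusted p = 0.253). The marker lists of iNKT1, iNKT17, double positive thymocytes, regulatory T cells, B cells and myeloid cells had 0 iNKT2 regions among 64, 75, 6, 43, 18 and 14 regions at their genes. At the 2.28% of all regions, lists of this size would hold few or none, so nothing is read from these zeros.

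The 8 genes with the most iNKT2 regions were on none of these lists, and their regions behaved in different ways in the knockout. Sh3bp4, an adaptor of endocytosis, led with 13 of the 20 regions nearest to it, over 120 kb (chr1:89074552-89194738). Of these, 8 met the rule in Hivep3-/- and 12 were called against each of the other subsets. Their median was 4.50 and 4.49 in C57BL/6 iNKT2, and in Hivep3-/- iNKT2 3.72 and 3.49. Zfp536, which encodes a zinc finger protein, had 9 and Adamts20, a secreted metalloprotease, had 9, of which 6 and 5 met the rule. Jarid2, a partner of the Polycomb complex, had 6, of which 5 met it, with medians of 4.13 and 3.81 in C57BL/6 and 3.45 and 3.59 in Hivep3-/- iNKT2.

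The strongest region nearest to Zfp536 (chr7:37684335-37684834, intronic) was at 5.75 and 5.86 in C57BL/6 iNKT2, and in Hivep3-/- iNKT2 6.40 and 6.55. The other Hivep3-/- subsets stood at 3.89–4.39 there, and the difference from iNKT1 was 2.49 ± 0.16 (limma adjusted p = 6.93e-08). Runx1 encodes a Runt factor needed in T cell development. It had 7 iNKT2 regions, all intergenic and upstream, the one with the largest margin 284 kb from the start. Of these, 7 were called against Hivep3-/- iNKT17, 4 against iNKT1, and 2 met the rule.

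Nos1, the neuronal nitric oxide synthase, had 8 iNKT2 regions within 59.4 kb, all intronic. Their median was 3.96 and 3.76 in C57BL/6 iNKT2, and in Hivep3-/- iNKT2 0.98 and 1.83. In the knockout 1 was called against iNKT1, 2 against iNKT17, and 1 met the rule. Regions that did not pass the filter count as not called here. Over all 8 the median Hivep3-/- iNKT2 difference was 1.78 from iNKT1 and 3.02 from iNKT17. The region that met it (chr5:117922095-117922594) was at 5.96 and 5.85 in C57BL/6 iNKT2, and in Hivep3-/- iNKT2 at 3.84 and 4.05, above Hivep3-/- iNKT1 at 1.99 and 2.20. The Nos1 region shown above was at 3.94 and 3.82 in C57BL/6 iNKT2, and in Hivep3-/- iNKT2 at 0.51 and 0.44.

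Akap6, an anchoring protein for protein kinase A, had 5 iNKT2 regions within 133 kb, and 0 met the rule in the knockout. Their median was 3.47 and 3.44 in C57BL/6 iNKT2, and in Hivep3-/- iNKT2 -1.22 and -0.41. Plk2, a polo-like kinase gene, had 6 regions, of which 1 met the rule, with medians of 4.13 and 3.92 in C57BL/6 and 2.14 and 1.76 in Hivep3-/- iNKT2. By contrast all 4 regions nearest to Nrp2 and all 4 nearest to Phlda1 met the rule in the knockout. Nrp2, a semaphorin receptor, had medians of 3.82 and 3.64 in C57BL/6 and 3.62 and 3.59 in Hivep3-/- iNKT2. Tgfbr3, a TGF-β coreceptor, had 6 regions, of which 5 met the rule, with medians of 3.59 and 3.63 in C57BL/6 and 3.68 and 3.78 in Hivep3-/- iNKT2. Akap6, Plk2, Nrp2, Phlda1 and Tgfbr3 were picked after their values were seen.

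At Tmod1, which encodes a capping protein of actin filaments, the library medians of iNKT2 and iNKT1 were close in the knockout. Its 10 iNKT2 regions had medians of 4.24 and 4.22 in C57BL/6 iNKT2 and of 2.74 and 2.70 in Hivep3-/- iNKT2. In iNKT1 they had 1.28 and 1.36 in C57BL/6 and 2.40 and 2.48 in Hivep3-/-. Taken region by region, the median Hivep3-/- iNKT2 difference was larger, at 1.16 from iNKT1 and 3.60 from iNKT17. Of these regions 4 were called against Hivep3-/- iNKT1 and 9 against iNKT17. The region with the second largest margin (chr4:46092366-46092865) went from 3.74 and 4.24 to 2.60 and 2.20 in iNKT2, while iNKT1 was at 0.51 and 0.63 in C57BL/6 and 2.59 and 2.45 in Hivep3-/-. Its Hivep3-/- difference of -0.13 ± 0.51 missed the threshold (limma adjusted p = 0.854). At Mpp4, a scaffold protein gene, 1 of 6 regions met the rule in the knockout, and the Mpp4 promoter region was at 4.02 and 3.63 in Hivep3-/- iNKT2 and 3.28 and 3.40 in iNKT1.

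**Figure D5:**
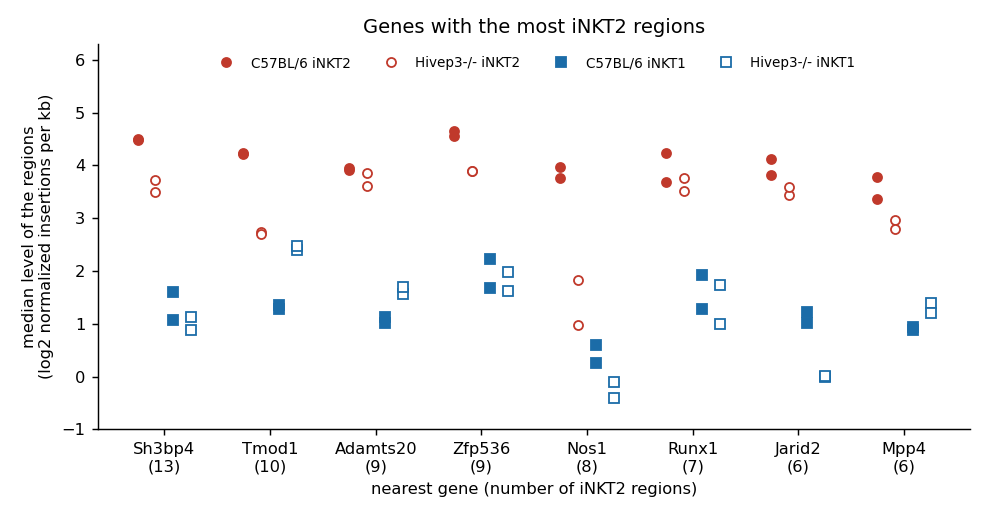
Median level (log2 normalized insertions per kb, vertical axis) of the iNKT2 regions nearest to each of 8 genes (horizontal axis, number of regions in brackets), with 1 point per library for iNKT2 (circles) and iNKT1 (squares) in C57BL/6 (filled) and Hivep3-/- (open). At Nos1 the Hivep3-/- iNKT2 points are 0.98 and 1.83 against 3.96 and 3.76 in C57BL/6, and at Tmod1 the Hivep3-/- iNKT2 (2.74 and 2.70) and iNKT1 (2.40 and 2.48) points nearly meet. Taken region by region, the Tmod1 difference between these 2 groups had a median of 1.16.

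Of the 12 regions with the largest margin in C57BL/6, 4 met the rule in Hivep3-/-. Among those that did not, regions at Ttc27, Nos1 and Arhgap20 had margins of 4.52, 2.83 and 2.62 in Hivep3-/-. They missed only the level, with Hivep3-/- iNKT2 means of 2.16, 0.48 and 1.35. The largest margin, 5.17 (36.0-fold), was that of the Slain1 intergenic region, which was at 3.27 and 3.31 in C57BL/6 iNKT2, and in Hivep3-/- iNKT2 at -0.61 and -4.05. The other Hivep3-/- libraries ranged from -3.12 to -1.06, so 1 of the Hivep3-/- iNKT2 libraries was above them and the other below. An intronic region of Megf11 (chr9:64510575-64511074) went from 3.66 and 3.55 to 0.06 and 0.76. The 4 that met the rule were intronic regions of Car8 and Stard9, a region 232 kb from the start of Phlda1 and an intergenic one 82.9 kb from that of Duxbl3. The Phlda1 region (chr10:111739755-111740254) was at 3.25 and 3.45 in C57BL/6 iNKT2, and in Hivep3-/- iNKT2 at 3.23 and 2.92, with iNKT1 at -1.72 and -1.19.

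At the other end, some iNKT2 regions had a larger margin in the knockout than in C57BL/6, where the rule had set it. The D17Wsu92e intronic region (chr17:27774130-27774629) was at 3.90 and 3.94 in C57BL/6 iNKT2, and in Hivep3-/- iNKT2 at 5.12 and 4.98. Hivep3-/- iNKT1 was at -3.12 and -1.59, and the difference was 7.40 ± 0.65 (limma adjusted p = 8.2e-07). The regions called higher in Hivep3-/- than in C57BL/6 iNKT2 were both intronic, in Xpo4, a nuclear transport receptor, and in Palld, an actin-binding protein. The Xpo4 region (chr14:57611012-57611511) went from 3.16 and 2.94 to 5.39 and 5.43 in iNKT2, and the Palld region (chr8:61562638-61563137) from 3.31 and 2.99 to 5.39 and 5.35. Both met the rule in the knockout. The largest falls among called regions, measured from values that the rule picked to be high, were at Akap6, Slain1, Ttc27, Eps8l3 and Dysf. Both Hivep3-/- iNKT2 libraries were at the lowest value of the library in the Akap6 region and 1 in each of the Slain1 and Dysf regions, so the size of these falls is uncertain. The exonic Akap6 region (chr12:52887280-52887779) went from 3.27 and 3.04 to -3.79 and -4.05.

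Regions just inside and just outside the rule were much alike. The closest inside the margin were intronic regions of Tnfrsf19 and Moxd1 (margins 1.58527 and 1.58567), and the closest outside were regions near Tlr2 and Fmc1 (1.58461 and 1.5845). The closest inside the level were regions near Phlda1 and Edn2 (C57BL/6 iNKT2 means 2.33 and 2.35), and the closest outside were near Cd200 and Acot1 (2.31 and 2.27).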

How the data were processed

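The authors trimmed reads to 50 bp with Trimmomatic (version 0.39 per the submitters' notes), mapped them to mm10 with the ENCODE pipeline, merged peaks into regions of 500 bp with chromVAR and normalized transposase insertions with voom. The deposited log2 values are normalized insertions per kb, made by the authors, with upper quantiles shared by the 12 libraries. No counts are given, so depth is unknown. All 12 columns were mapped to a library.

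The regions and gene lists were chosen with earlier results of these data known. Groups come from the labels. limma 3.58.1 (R 4.3.3) fitted 6 group means to 12 libraries, letting the variance follow the mean (degrees of freedom: 6 residual, 7.17 prior). Tests were limited to regions whose linear mean reached 5 in 1 or both groups, p was adjusted by Benjamini-Hochberg over them, and calls needed an adjusted p under 0.1 and 3-fold. An exact two-sided permutation test of 2 against 2 libraries cannot go below p = 0.333, so none was run. On simulated data for Hivep3-/- iNKT2 against iNKT1, 97 of 100 regions changed 4-fold and 100 of 100 changed 8-fold were recovered, with 8 false calls among 53217 tested. The changed regions all had a Hivep3-/- iNKT1 level well above the filter, and the simulated noise had no lowest value. The iNKT2 regions had medians of 1.23 (log2) in the Hivep3-/- iNKT1 libraries, so recovery of such low regions was not tested.

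The labels give same-numbered libraries of 1 genotype the same mouse, and their deviations from the group means correlated at 0.120–0.167 between subsets, so the replicate number was also fitted as a block. Coordinates are 1-based on GRCm38.p6, with GENCODE vM21 genes. Python 3.11.15, numpy 2.4.6, pandas 2.3.3, pysam 0.24.0, samtools 1.23.1 and matplotlib 3.10.9 were used, with seed 1.

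Regions were named by rule: the 12 largest margins, up to 4 per gene list, the 8 genes with most regions (at least 4) with up to 3 of their regions by margin, the 5 largest and 5 smallest Hivep3-/- differences, the 5 largest called falls and rises between genotypes, and 2 regions on each side of each threshold. Ties at 6 regions went by alphabet. Regions picked otherwise are said to be. Some named items are not reported here. The alternatives were the filter, pseudocounts of 1 and 5, a renewed quantile normalization, a 2-fold threshold, each library left out, the replicate block, no trend, the Hivep3-/- libraries alone, and other margins and levels of the rule.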

Additional observations from a re-analysis of the deposited data

How the results depend on the processing

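The Hivep3-/- counts of 879, 1085 and 839 iNKT2 regions moved by less than 1.5 times with no filter, a pseudocount of 1, a renewed quantile normalization, a 2-fold threshold, no trend, the Hivep3-/- libraries alone and each library left out (854–866, 1069–1099 and 811–830). With the replicate number as a block, the pairing gave 882, 1085 and 842, and no other count moved by over 1.5 times. A pseudocount of 5 gave 281, 384 and 223, and a filter on the mean over all libraries 574 against iNKT1 and 551 against both.

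For Hivep3-/- iNKT1 against iNKT17 (131 and 9), no filter gave 358 higher and 73 lower in iNKT1, the mean over all libraries 34 lower, a 2-fold threshold 20 lower, pseudocounts of 1 and 5 gave 4 and 0 lower, that of 5 also 4 higher, and leaving out libraries 119–144 and 8–15. Between genotypes, the regions lower in Hivep3-/- iNKT2 (176) were 37 with the mean over all libraries, 15 with a pseudocount of 5 and 83–137 with a library left out, and those higher (2) were 16 at 2-fold and 1–2. In iNKT1 the higher ones (65) were 133 at 2-fold, 101 without a filter, 39 and 0 with pseudocounts of 1 and 5, and 37–82 with a library left out, and the lower ones (3) were 15, 78, 1 and 0 in that order, 31 with the mean over all libraries, and 2–5. In iNKT17 the higher one (1) became 4 at 2-fold, 4 with the mean over all libraries, 13 without a filter, 0 with a pseudocount of 5 and 1–2, and the lower ones (6) became 31, 28, 62, 0 and 6–14, with 3 at a pseudocount of 1. The mean over all libraries drops regions open in 1 subset alone, and a pseudocount shrinks differences of low regions by its construction.

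The rule gave 3029 regions at 2-fold, 825 at 4-fold and 1548–1694 with a C57BL/6 library left out, which eases it. The share that met the rule in Hivep3-/- (46.8%) was 58.9% and 37.6% at those margins, 54.4% with group means, 41.4% with a pseudocount of 1 and 49.3–52.6% without a library. Of the tests of single named regions in Hivep3-/-, 3 changed sign, all far from the threshold: the Tmod1 region with the second largest margin was at 0.076 (limma adjusted p = 0.933) without Hivep3-/- iNKT2 replicate 2 (range over libraries left out -0.33 to 0.076), and the Cd4 region at -0.16 (0.872) without Hivep3-/- iNKT1 replicate 1 and -0.07 (0.946) without Hivep3-/- iNKT2 replicate 1 (range -0.16 to 0.36). The other repeats stayed on their side of the threshold in 1453 cases, lost a call in 74, of which 62 were with a pseudocount of 5, and gained one in 10.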
